A study of Rattus norvegicus with 8 samples.

Results

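The genes of the heterotrimeric G proteins and of the regulators of G protein signalling (RGS) were followed through 3′ end counts of the rat hypothalamus. Members were the protein-coding genes of the table whose symbol began with Gnb, Gng or Rgs and a digit, together with the Gi/o/z, Gq/11, G12/13 and Golf alpha subunit genes. The rule found 40 of 12255 genes, which carried 315 of 73922 polyadenylation sites. There were 10 G alpha genes with 92 sites, 5 G beta genes with 22 sites, 8 G gamma genes with 37 sites and 17 RGS genes with 164 sites. A single alpha symbol of the rule, Gna14, was not listed. The rule also took in Gnb1l, which encodes a protein resembling G beta subunits, and Rgs7bp, which encodes the membrane anchor of the R7 group of RGS proteins.

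The 8 libraries came from adult male Long-Evans rats and were made by whole transcriptome termini site sequencing (WTTS-seq), which reads the ends of polyadenylated RNA. The obesity group, labelled with diet-induced obesity, had free access to a high fat diet with 1.71 kcal/g from fat, and the control group ate standard rodent chow with 0.51 kcal/g from fat. Tissue was taken after 36 days. Each group held 4 libraries, numbered 1 to 4, and the labels gave no genetic change or drug in either group. Fat and the other ingredients of these diets cannot be told apart, and the labels gave no body weights.

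A heterotrimeric G protein is made of an alpha subunit, which binds guanine nucleotides, and a beta-gamma pair. Activated receptors load the alpha subunit with GTP, after which alpha and beta-gamma act separately on adenylyl cyclases, phospholipase C beta and ion channels. RGS proteins speed the hydrolysis of GTP by Gi/o and Gq alpha subunits and so shorten the signal. In the hypothalamus, receptors for melanocortins, neuropeptide Y, opioids and monoamines signal through these proteins.

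The libraries held 1417531 to 1957726 reads, and the member sites took 60341 of 13341135 reads, or 0.426% to 0.485% of each library. The median member site had 60 reads over all 8 libraries, against 57 for all sites. Control library 1 and obesity library 1 had 14788 and 10659 sites at 0 reads, against 4062 to 6622 in the other libraries. Of 15 hypothalamic neuron markers 13 were measured, with summed levels of 1241 to 1680 CPM (reads scaled to a common library size) in control and 1029 to 1307 CPM in obesity. Most of that sum was Avp, at 976 ± 175 and 720 ± 90.3 CPM. Of the 13 markers 5 had log2 fold changes above 0, among them Crh at 1.72 (SE 0.74) and Sim1 at 2.03 (SE 0.82). The other 8 lay below 0, among them Oxt at -0.74 (SE 0.30) and Sst at -1.36 (SE 0.54). The control reads of Crh and of Sim1 alone lay under 30, the lowest total of a listed site. Both were therefore listed only through their obesity reads. All 10 oligodendrocyte markers had lower means in obesity, with sums of 17686 to 23147 CPM in control and 13647 to 21467 CPM in obesity. The measured dopamine neuron markers Th and Ddc, 2 of 5 listed, summed to 36.1 to 58.8 CPM in control and 6.13 to 32.2 CPM in obesity. The gap was in Th, at 39.2 ± 7.13 and 11.9 ± 11.1 CPM (edgeR adjusted p 0.921, or 0.0880 with the block), as Ddc stood at 7.76 ± 2.82 and 6.76 ± 4.52 CPM. Ttr, the only measured choroid plexus marker of 5 listed, reached 98.0 CPM in obesity library 4 and at most 1.52 CPM in control. It had 0 reads in obesity libraries 1 to 3, so it was listed only through obesity library 4. The measured pituitary markers, 3 of 6 listed, summed to 126.6 CPM in obesity library 2 and to at most 56.0 CPM in control. The part of these differences between tissue pieces in the results below was not tested.

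A gene's abundance was its summed site counts on the dominant strand, in CPM of the scaled library total. Because each RNA contributes its 3′ end, the count was not scaled to transcript length. Sites in A-rich stretches inside an RNA can be counted too, so sums over many sites may still depend on gene length, which was not tested. Members spanned 2.96 to 1537 CPM, with 11 genes over 100 CPM and 12 under 20 CPM. Each class was led by a gene well above the rest.

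**Figure D1:**
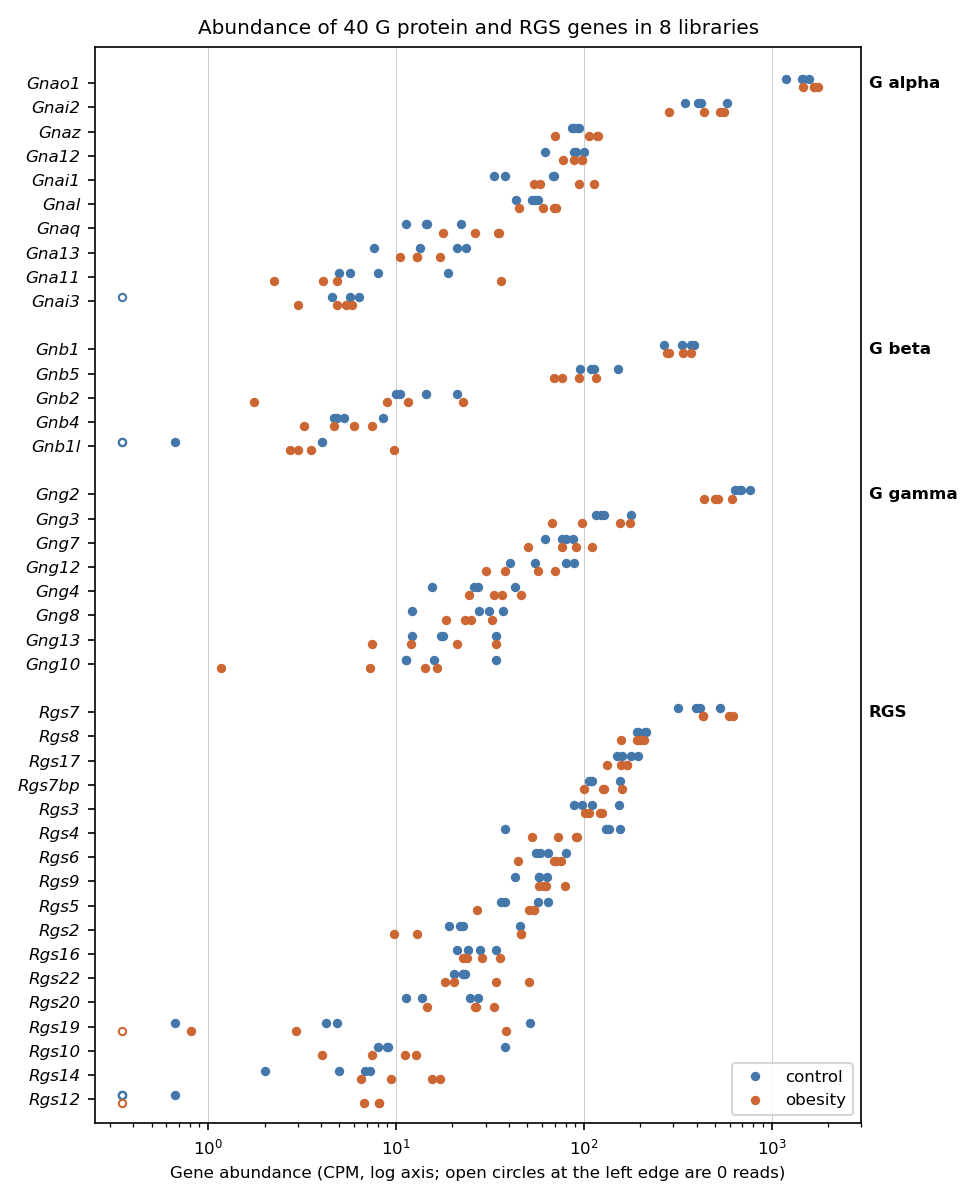
Abundance of the 40 member genes in each library, in CPM on a log axis, with genes ordered within the G alpha, G beta, G gamma and RGS classes and the 4 control and 4 obesity libraries in different colours. Gnao1 at 1192 to 1764 CPM stood above every other member, and of all 40 genes only Gng2 had its 4 obesity libraries all below its 4 control libraries.

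Among the alpha subunits, Gnao1 encodes the Go protein, the main alpha subunit of neurons, and it ranked 56 among all 12255 genes. Gnao1 took 61.8% to 72.2% of the summed abundance of the 10 member G alpha genes in each library. The stimulatory alpha gene Gnas, which was no member, stood higher, at 3868 ± 280 CPM in control and 4136 ± 530 CPM in obesity. Controls 1 to 4 held 2231, 1782, 1806 and 1908 Gnao1 reads and obesity libraries 1 to 4 held 2349, 1817, 2878 and 2464. Among members, Gnai2, an inhibitory subunit that lowers cyclic AMP, came next at 437 ± 99.4 CPM in control and 454 ± 125 CPM in obesity (SD, n = 4 per group, as for all values below). Gnaz, a slow relative of Gi, stood at 90.6 ± 3.63 and 103 ± 22.6 CPM. Gna12, Gnai1, Gnal and Gnaq followed at 88.1, 66.1, 56.9 and 22.1 CPM over all libraries. The alpha classes of the members, which leave out Gnas, therefore ordered as Gi/o/z, at 1722 to 2426 CPM summed per library, then G12/13, Golf and Gq/11. G12/13, at 83.6 to 124 CPM, and Golf, at 43.5 to 70.8 CPM, did not overlap. Gq/11, at 16.3 to 71.5 CPM, overlapped with Golf through obesity library 4 alone, where Gna11 stood at 36.1 CPM against 2.25 to 19.0 CPM in the other libraries. Gnai3 was the lowest alpha gene, with 50 reads in all.

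Golf, encoded by Gnal, is the alpha subunit best known from olfactory and striatal neurons, and Rgs9 is likewise abundant in striatum. The striatal markers, of which 7 of 9 were measured, summed to 312 to 364 CPM in control and 265 to 431 CPM in obesity, where Pde10a and Penk carried most of the sum. Gnal stood at 43.5 to 57.0 CPM in control and 45.5 to 70.8 CPM in obesity, so the groups overlapped. Rgs9 stood at 42.8 to 63.4 and 57.6 to 79.6 CPM, again with overlap. The part of striatal tissue in these levels was not tested.

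Among the beta subunits, Gnb1 made up 65.1% to 78.1% of the class. It stood at 340 ± 53.5 CPM in control and 318 ± 46.2 CPM in obesity. Gnb5, the atypical beta subunit that binds the R7 group of RGS proteins in place of a gamma subunit, followed at 118 ± 24.6 and 89.2 ± 20.9 CPM. Gnb2 and Gnb4 were far lower, at 12.7 and 5.60 CPM over all libraries, each from a single site. Gnb1l had 32 reads in all.

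Among the gamma subunits, Gng2 took 54.2% to 71.1% of the class and ranked 195 among all genes. Gng3, a gamma subunit of neurons, followed at 136 ± 28.3 CPM in control and 125 ± 50.3 CPM in obesity. Gng7, known as a partner of Golf in striatum, stood at 76.7 ± 10.7 and 82.4 ± 25.7 CPM. The remaining genes Gng12, Gng4, Gng8, Gng13 and Gng10 ranged from 14.01 to 57.6 CPM over all libraries.

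Among the RGS genes, Rgs7 led with 26.0% to 38.0% of the class. Its reads were summed over 58 sites, the most used of which lay 357160 bases from the most 3′ one. Rgs7 encodes an R7 protein that acts on Gi/o subunits in neurons. Rgs8, a small R4 protein, followed at 204 ± 11.6 CPM in control and 190 ± 22.4 CPM in obesity. Rgs17, a member of the RZ group, stood at 171 ± 20.3 and 157 ± 16.8 CPM. Summed over their genes, the R7 group reached 445 to 773 CPM per library and the R4 group (Rgs2, Rgs3, Rgs4, Rgs5, Rgs8 and Rgs16) 449 to 616 CPM, so these groups did not separate. The RZ group, at 170 to 258 CPM, and the R12 group, at 10.7 to 43.2 CPM, lay below both. The single-site gene Rgs5, which marks mural cells of vessels, stood at 36.5 to 64.9 CPM in control and 27.04 to 54.4 CPM in obesity.

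A first comparison asked whether the total output of any member gene differed between diet-induced obesity and control. No member passed an adjusted p of 0.1 in the quasi-likelihood F test of edgeR, where the lowest of the 40 was 0.921. Over all genes the test called 0 of 12255 (0%). At an unadjusted p under 0.05 there were 3 members, which were Rgs12 (listed only through its obesity reads, as described below), Gng2 and Gnaq, against 627 of all genes (5.12%). The other tool, the DESeq2 Wald test, called 0 members at an adjusted p of 0.1, with 4 of all genes called (0.0326%). Of the members 23 had a log2 fold change above 0 (57.5%, against 50.1% of all genes), and their median was 0.05, against 0.00 for all genes. In pieces of whole tissue, fewer cells of a type and less RNA per cell cannot be told apart.

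Library numbers paired the samples, as the same number in both groups went with shared deviations. With the number as a block, 6 members had an unadjusted p under 0.05, adding Gnai1, Rgs4 and Rgs7 to the 3 named, against 10.9% of all genes. None of the 6 passed an adjusted p of 0.1, a threshold that 34 of all genes (0.277%) reached in that fit. The lowest adjusted p among members was 0.197, for Gng2. The 6 genes were 15% of the members, against the 10.9% of all genes.

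**Figure D2:**
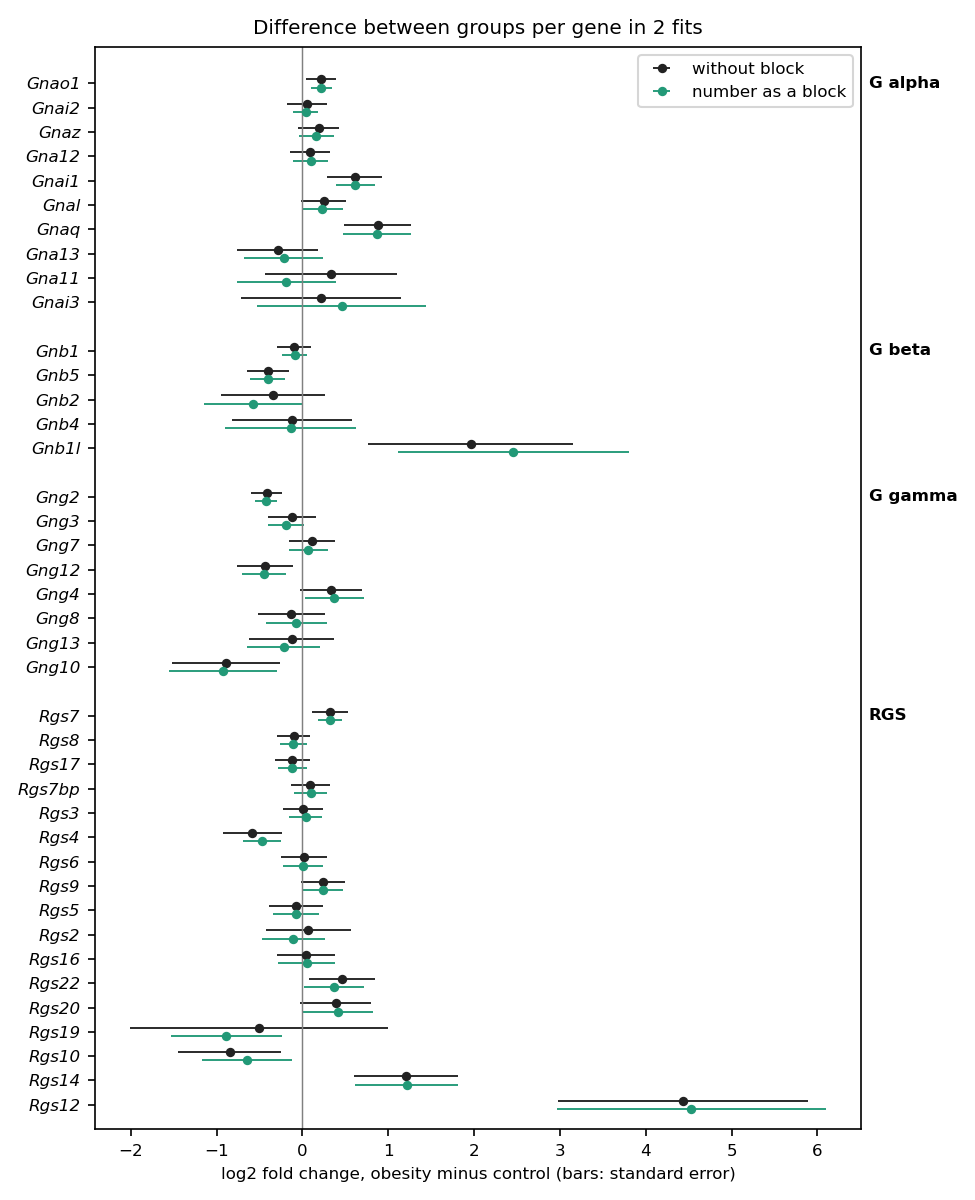
The log2 fold change of each member gene, obesity minus control, with its standard error as a bar, from the edgeR fit without a block and the fit with the library number as a block. Intervals were wide for the genes of lowest abundance (SE up to 1.502), and Gng2, at -0.42 in both fits, lay farther from 0 in units of its error than the other genes over 100 CPM.

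The alpha genes had log2 fold changes above 0 in 9 of 10 cases, with a median of 0.21, and the exception was Gna13 at -0.29 (SE 0.47). Gnaq, which couples receptors to phospholipase C beta, had 16, 33, 18 and 19 reads across controls 1 to 4. Its obesity libraries held 35, 22, 60 and 52 reads, so that only obesity library 2 lay within the control range after scaling. Its log2 fold change was 0.87 (SE 0.39, edgeR adjusted p 0.921, unadjusted p 0.0395), and it was higher in 3 of 4 same-numbered pairs. Gnai1, another inhibitory alpha gene, had 97, 57, 41 and 91 reads in control and 125, 67, 100 and 166 in obesity. The obesity library was the higher one in each of its 4 pairs, although the groups overlapped, and the log2 fold change was 0.61 (SE 0.32, edgeR adjusted p 0.921), with an unadjusted p of 0.0120 under the block. Gnao1 was also higher in 4 of 4 pairs, at 1423 ± 164 CPM in control and 1651 ± 123 CPM in obesity, a log2 fold change of 0.21 (SE 0.17). That value was 0.14 without control library 2 and 0.42 at its most used site alone. Summed over the class, G alpha abundance was 1897 to 2376 CPM in control and 2269 to 2653 CPM in obesity, with overlap.

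Gnb1 and Gnb5 had log2 fold changes of -0.10 (SE 0.20) and -0.40 (SE 0.24), and 4 of 5 beta genes lay below 0. Gnb5 had 160, 143, 188 and 143 reads in control and 92, 143, 162 and 113 in obesity. The gene was lower in 3 of 4 pairs, its groups overlapped, and its log2 fold change was -0.24 without control library 3. Gnb2 was at -0.34 (SE 0.61). Gnb1l rested on 0, 1, 5 and 0 reads in control and 4, 12, 6 and 4 in obesity, which left its log2 fold change of 1.96 with an SE of 1.20. It was 3.91 without control library 3, and with 32 reads in all the site would not have been listed without its obesity reads.

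The gamma genes lay below 0 in 6 of 8 cases, with a median of -0.13. Gng2 pairs with Gnb1 and other beta subunits in neurons. Controls 1 to 4 held 1084, 1027, 827 and 839 Gng2 reads and obesity libraries 1 to 4 held 824, 638, 849 and 642. Scaled to library size, these were 638 to 768 CPM in control and 437 to 619 CPM in obesity, so the groups did not overlap. It was the only member of which this held (2.5% of members, against 3.45% of all genes in either direction), and the obesity library was lower in 4 of 4 pairs. Gng2 stood at 691 ± 55.1 CPM in control and 518 ± 75.7 CPM in obesity, a log2 fold change of -0.42 (SE 0.18, unadjusted p 0.0344) that did not pass the adjusted threshold (edgeR adjusted p 0.921, or 0.197 with the block). Under the block and without both libraries numbered 2, its edgeR adjusted p was 0.0820, and this was the only setting of the 19 run in which a member gene passed.

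Summed G gamma abundance was 976 to 1125 CPM in control and 699 to 931 CPM in obesity, without overlap. Without Gng2 the sum was 312 to 453 CPM in control and 262 to 420 CPM in obesity, with overlap, so the separation of the class sum rested on Gng2. Gng10 stood at 18.2 ± 10.8 and 9.82 ± 6.98 CPM, a log2 fold change of -0.89 (SE 0.63). Without control library 3 that value was -0.39, without obesity library 3 it was -0.49, and without both libraries numbered 3 under the block it was -0.06. Gng12 had 57, 133, 68 and 106 reads in control and 40, 70, 120 and 56 in obesity, at -0.44 (SE 0.33). Leaving out control library 2 gave -0.26, and leaving out obesity library 3 gave -0.67. Gng3 and Gng7 were at -0.13 (SE 0.28) and 0.11 (SE 0.27).

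The RGS genes split into 11 above and 6 below 0, with a median of 0.04. Rgs7 had 750, 623, 390 and 524 reads in control and 828, 529, 737 and 876 in obesity, with control library 3 the lowest. After scaling the obesity library was the higher of each pair, at 416 ± 88.3 and 520 ± 104 CPM, with a log2 fold change of 0.32 (SE 0.21). Its unadjusted p under the block was 0.0287 (edgeR adjusted p 0.384). Rgs7 and its obligate partner Gnb5 thus lay on opposite sides of 0, and the difference between them was not tested. The other R7 genes Rgs6 and Rgs9 were at 0.02 (SE 0.26) and 0.24 (SE 0.26), and the anchor Rgs7bp at 0.09 (SE 0.23).

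Rgs4, an R4 gene of neurons, had 193, 197, 47 and 205 reads in control and 97, 113, 91 and 134 in obesity. The low control library 3, at 38.2 CPM, lay below every obesity library, and the other 3 control libraries lay above all of them. The log2 fold change was -0.59 (SE 0.34), and it was -0.87 without control library 3. The edgeR adjusted p was 0.924, or 0.444 with the block. Rgs8 and Rgs17 were at -0.10 (SE 0.19) and -0.12 (SE 0.20). Rgs8 was at -0.010 without obesity library 4, and Rgs17 at -0.043 without obesity library 3, at -0.047 without control library 1 and at -0.53 at its most used site alone.

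Rgs12 and Rgs14 encode large R12 proteins with domains beyond the RGS fold, and Rgs10 encodes the small protein of that group. Rgs12 had 0, 1, 0 and 0 reads in control and 9, 10, 0 and 12 in obesity. No site with fewer than 30 reads in all is listed, so this single site, with 32 reads, entered the table only through the obesity libraries, and its unadjusted p is conditioned on that. No ratio is given for it. Obesity library 3 had no read, and the groups overlapped. Rgs14 had 7, 3, 9 and 9 reads in control and 23, 8, 16 and 23 in obesity, higher in 4 of 4 pairs, with a log2 fold change of 1.21 (SE 0.61). The control reads of its single site alone lay under the lowest listed total of 30 reads, so its listing leaned on the obesity reads. Rgs10 had 54, 12, 11 and 12 reads on its own strand in control and 17, 5, 19 and 11 in obesity. Its log2 fold change of -0.85 (SE 0.60) rested on control library 1 and was 0.03 without it.

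The other 19 members had log2 fold changes of -0.51 to 0.46, and the lowest unadjusted p among them was 0.244. In all, 7 of 40 members lay to one side in each of the 4 pairs, 5 of them higher and 2 lower (17.5%, against 18.9% of all genes). The higher genes were Gnao1, Gnai1, Gnal, Rgs7 and Rgs14 and the lower ones Gng2 and Rgs8.

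The next question was how the members' reads were spread over polyadenylation sites. Members had a median of 4.5 sites on the strand of the gene, against 3 for protein-coding genes, and 13 members had a single site. In 27 members with 2 or more sites, the most used site held from 6.62% of the reads (Rgs7) to 95.1% (Gng7). It held at least 50% in 12 of them. The most used site was the most 3′ one in 10 of the 27.

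**Figure D3:**
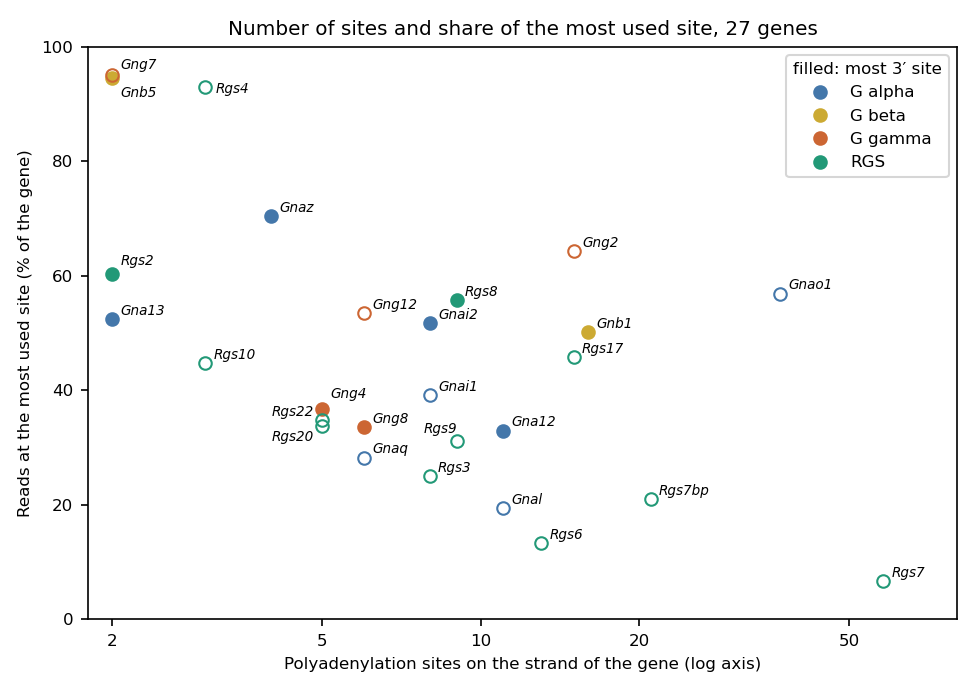
Number of polyadenylation sites on the strand of the gene (x axis, log scale) against the share of the gene's reads at its most used site (y axis, %), for the 27 members with 2 or more sites, filled where that site was the most 3′ one. Rgs7, with 58 sites, had no leading site, while Gnao1 with 37 sites and Gng2 with 15 each sent more than 50% of their reads to 1 site.

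Coordinates here are those of the Rnor_6.0 assembly, as the table gives them, and where a site lay relative to exons, introns and UTRs was not analysed here. The 58 Rgs7 sites ran over 430 kb of chromosome 13 (minus strand), and the 21 sites of Rgs7bp over 546 kb of chromosome 2 (minus strand). Gnao1 had 37 sites over 157 kb of chromosome 19 (minus strand), but 56.9% of its reads ended at 1 site, 171 bases before the most 3′ one. The 15 sites of Gng2 ran over 89.5 kb of chromosome 15 (plus strand). Of its reads 85.0% fell at the last 5 sites, within 2.73 kb. Rgs4 had 3 sites within 0.856 kb, one of which held 93.0% of its reads.

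Several members were neighbours in the genome. Rgs2, Rgs8, Rgs16, Rgs5, Rgs4 and Rgs7 all lay on chromosome 13. The sites of Rgs5 and Rgs4, on opposite strands, were 50.8 kb apart, and their log2 fold changes were -0.07 (SE 0.32) and -0.59 (SE 0.34). Rgs8 and Rgs16, both on the plus strand and 43.3 kb apart, stood at 197 and 27.3 CPM over all libraries. Rgs9 and Gna13 on chromosome 10 were 72.1 kb apart.

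Single sites were then compared between the groups. No member site passed an adjusted p of 0.1 in edgeR without the block, where 1 of 73922 sites did (0.00135%), or with it, where 4 did (0.00541%). At an unadjusted p under 0.05 there were 11 member sites (3.49%) against 3.14% of all sites, and 21 with the block (6.67%) against 6.09%. The groups did not overlap at 9 member sites (2.86%, against 3.11% of all sites). The median log2 fold change was 0.10 over the 315 member sites and 0.05 over all sites.

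The main Gng2 site on chromosome 15 (plus strand, 4852178 to 4852215) held 64.4% of the gene's reads. It had 745, 714, 585 and 574 reads in control and 510, 438, 414 and 354 in obesity. The groups did not overlap, at 409 ± 22.2 and 250 ± 53.7 CPM of all site reads, and the log2 fold change was -0.71 (SE 0.26). Its unadjusted p was 0.0167 without the block and 0.0012 with it, and its edgeR adjusted p was 1.00 and 0.341. Without both libraries numbered 2, under the block, the adjusted p was 0.0735. The 14 other sites together stood at 181 ± 7.07 CPM in control and 175 ± 34.5 CPM in obesity, with overlap. The main site took 68.4% to 70.7% of the gene's reads in the control libraries and 61.9%, 68.7%, 48.8% and 55.1% in obesity libraries 1 to 4. Of the other sites 12 of 14 had a larger mean share in obesity, shares of 1 gene being tied to each other. In the test of site use within the gene, Gng2 had a Simes p of 0.657 (edgeR adjusted p 1.00), so a difference in site use was not detectable.

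**Figure D4:**
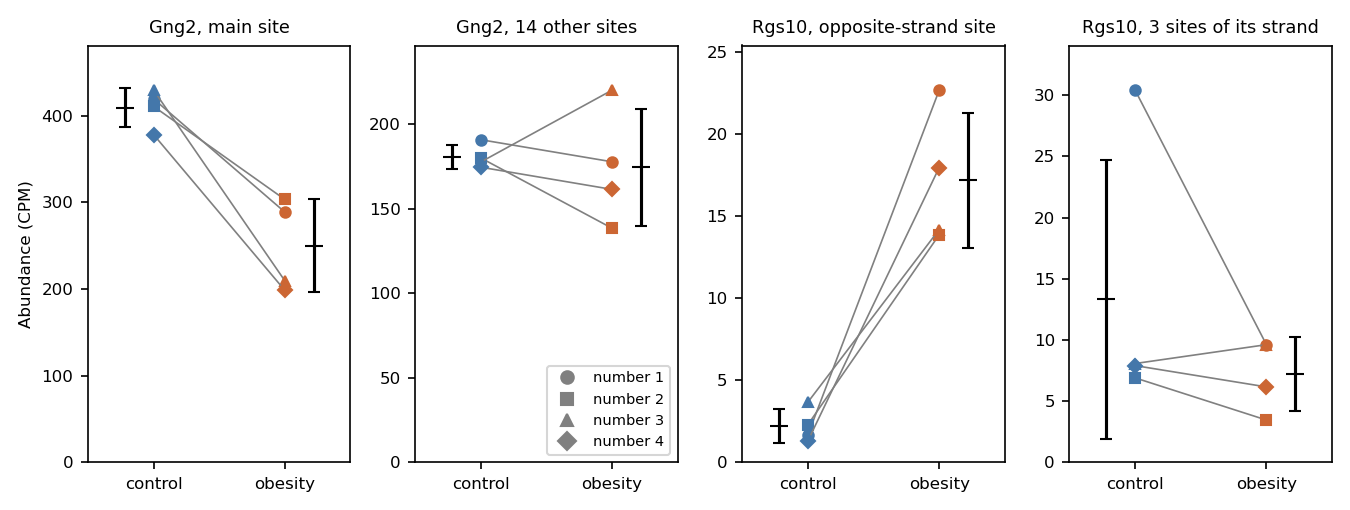
Abundance in CPM of all site reads in each library at the main Gng2 site, the 14 other Gng2 sites summed, the Rgs10 site on the opposite strand and the 3 Rgs10 sites on the strand of the gene, with grey lines joining libraries of the same number and bars for the mean and SD of 4 libraries. At the main Gng2 site the controls sit at 378 to 430 CPM and the obesity libraries at 198 to 303 CPM, at the Rgs10 opposite-strand site every obesity library sits above every control, and at the remaining sites of both genes the lines run in both directions. The Rgs10 opposite-strand site was listed only through its obesity reads.

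The member site with the smallest p lay in the span of Rgs10 but on the plus strand (chromosome 1, 199792207 to 199792220), whereas Rgs10 is read from the minus strand. It had 3, 4, 5 and 2 reads in control and 40, 20, 28 and 32 in obesity. Each obesity library thus stood above every control library. The control reads alone lay under the lowest listed total of 30 reads, so the site was listed only through its obesity reads. The lack of overlap and the values that follow are conditioned on that. The log2 fold change was 2.91 (SE 0.57), with an edgeR adjusted p of 1.00 without the block and 0.145 with it. The DESeq2 Wald test gave an adjusted p of 0.0217. That test called 10 of all sites (0.0135%) and left 192 of the 315 member sites without an adjusted value. Under the block without both libraries numbered 2 the edgeR adjusted p was 0.0432. The next plus-strand sites were 121 kb before it, in Tgfb1i1, and 89.8 kb after it, in LOC108349783, so the table tied it to Rgs10 by position only and its gene is uncertain. The 3 minus-strand Rgs10 sites together held 141 reads, against 134 at this one, and the nearest of them was 10.1 kb away.

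Across members 12 sites of 9 genes lay on the strand opposite to most reads of their gene, with 1684 reads, or 2.79% of the member reads, the same share as over all protein-coding genes. Of these 12 sites 11 had a log2 fold change above 0, with a median of 0.98. Over all 3081 opposite-strand sites in the data 62.4% lay above 0, with a median of 0.27. The exception among members was the Rgs22 site at -0.40 (SE 0.57). Besides the Rgs10 site, the Gna12, Rgs6 and Gnb5 sites, with 34, 36 and 42 reads in all, lay near the lowest listed total of 30 reads. These sites too would not have been listed without their obesity reads. The count of 11 and the median of 0.98 are partly conditioned on that. Summed without the Rgs10 site, the other 11 stood at 63.9 to 134 CPM in control and 90.7 to 160 CPM in obesity, with overlap. All opposite-strand sites of the table together stood at 15673 to 20527 CPM in control and 16950 to 27956 CPM in obesity, and obesity libraries 1 and 3 were the high ones in both sums. The table gives a strand for each site, but the genes of these sites remain uncertain.

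Among them, the Rgs7bp site on chromosome 2 (plus strand, 35129287 to 35129298) had 12, 22, 6 and 11 reads in control and 54, 12, 25 and 30 in obesity. Its log2 fold change was 1.13 (SE 0.54), or 0.68 without obesity library 1, and obesity library 2 lay within the control range. The Rgs7 site on chromosome 13 (plus strand, 93390751 to 93390756) had 3, 14, 7 and 7 reads in control and 14, 10, 29 and 26 in obesity, at 1.17 (SE 0.61).

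Of the remaining named sites, 4 lay on the strand of their gene and had lower means in obesity. A minor Gnao1 site (chromosome 19, minus strand, 11634819 to 11634820), with 0.981% of that gene's reads, had 44, 19, 25 and 26 reads in control and 13, 17, 13 and 12 in obesity. Its log2 fold change of -1.13 (SE 0.47) ran against the 0.21 of the whole gene. The most used Gna12 site, also its most 3′ one (chromosome 12, plus strand, 15971202 to 15971228), had 42, 48, 68 and 39 reads in control and 32, 27, 40 and 28 in obesity. After scaling its groups did not overlap, with a log2 fold change of -0.80 (SE 0.40), or -0.49 without control library 3, while the gene as a whole was at 0.09 (SE 0.24). The most used Rgs17 site (chromosome 1, minus strand, 42493666 to 42493691) had 160, 132, 86 and 122 reads in control and 66, 108, 79 and 85 in obesity, at -0.63 (SE 0.34). The most used Gng12 site (chromosome 4, plus strand, 97761502 to 97761513) had 45, 60, 40 and 64 reads in control and 23, 21, 59 and 36 in obesity, at -0.75 (SE 0.41). In both of these genes the groups overlapped at the site, and the edgeR adjusted p of all 4 sites was 1.00 without the block and 0.717 to 0.802 with it.

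How a gene's reads were shared among its sites was tested in 27 members. None passed an adjusted p of 0.1 without or with the block, where 0 (0%) and 1 (0.0125%) of 7996 genes with 2 or more sites did. No member had a Simes p under 0.05, against 109 of all genes (1.36%), and with the block 1 did, Gnal, against 2.79%. The lowest values without the block were 0.0751 for Gnal, 0.109 for Rgs3, 0.326 for Rgs17, 0.330 for Gnb5 and 0.494 for Gng4. In Gnal, the tenth of 11 sites had 13, 2, 8 and 5 reads in control and 0, 0, 2 and 0 in obesity. With 30 reads in all this site lay at the lowest total listed and would not have been listed without its control reads, so no ratio is given. In Rgs3, the fifth of 8 sites took 0.851% ± 0.608 of the gene's reads in control and 6.21% ± 3.48 in obesity, from 2, 3, 1 and 0 reads against 18, 6, 14 and 4. This Rgs3 site was listed only through its obesity reads, and its shares are conditioned on that.

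A set of member sites followed the library number in place of the diet. At 12 of 315 member sites, both libraries of 1 number stood more than 3 times above every other library. Among the 12 possible pairs of a control and an obesity library with different numbers, 0 member sites did so. Of all 73922 sites, 1873 did so in the 4 same-number pairs and 190 in the 12 pairs of different numbers. These features were chosen after their values were seen. The third of 8 Gnai1 sites had 20 reads in each library numbered 4 and 0 in the other 6, and the first of 8 Gnai2 sites had 16 and 14 reads in the libraries numbered 2 and 1 in all the others together. Rgs19, a single-site RZ gene, had 6, 1, 6 and 68 reads in control and 0, 1, 5 and 57 in obesity. The Rgs19 level differed far more between library 4 and the rest than between the diets. Without the pair in which it stood high, each of these Gnai1, Gnai2 and Rgs19 sites would lie under the lowest listed total of 30 reads. The same held for the Rgs17, Gng2 and Gnao1 sites among the 12. The listing of all these sites, and with it part of the count of 12, therefore rested on that pair. What the number stands for is not given in the labels, so animals, preparation and sequencing cannot be told apart as its content.

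**Figure D5:**
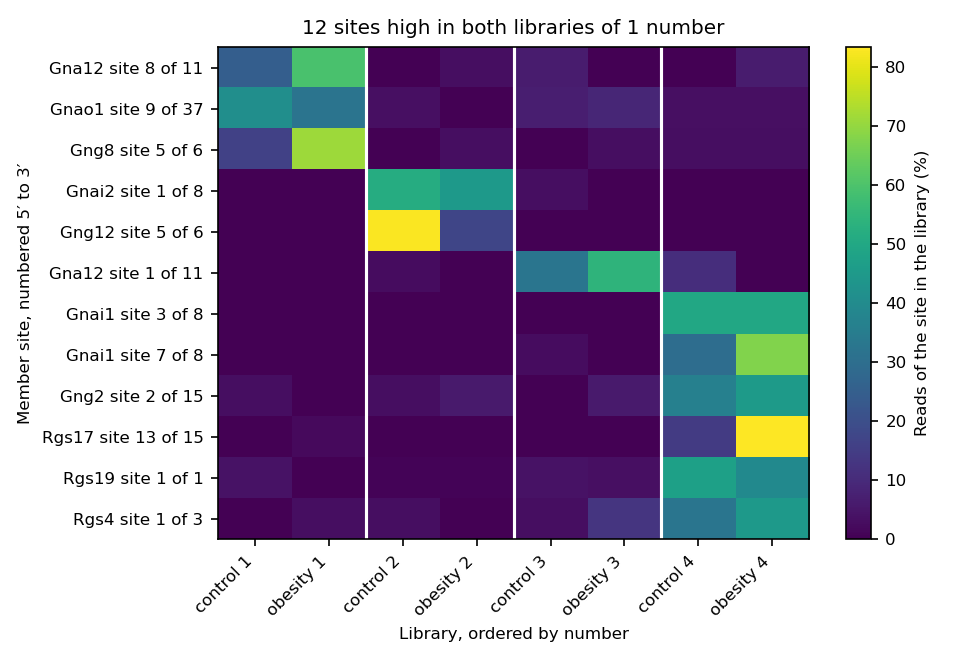
The 12 member sites at which both libraries of 1 number stood more than 3 times above every other library (rows, named by gene and by their order from 5′ to 3′), with the share of the site's reads in each of the 8 libraries (columns, ordered by number) as colour in %. Bright cells come in neighbouring control and obesity columns, among them the Gnai1 site with 20 reads in each library numbered 4. Some of these sites were listed only through the pair in which they stood high.

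The partners of these genes in the same pathway were given by lists of receptor kinases and arrestins, adenylyl cyclases, phospholipases C beta, G protein-gated potassium channels, protein kinase A subunits and other regulators and partners of alpha subunits. Of 60 listed symbols 48 were measured. None passed an adjusted p of 0.1 in either edgeR fit. Without the block 0 genes higher and 1 gene lower in obesity had an unadjusted p under 0.05, against 3 higher and 2 lower with it. These were 2.08% and 10.4% of the measured genes, below the 5.12% and 10.9% of all genes, so neither count stood above the background. The median log2 fold change was 0.14, against 0.00 for all genes. The lower gene in both was Rap1gap, whose protein binds Gz and Gi subunits and inactivates the small GTPase Rap1, at 30.5 ± 9.50 CPM in control and 15.6 ± 3.28 CPM in obesity. The others with the block were Adcy3, Arhgef11 and Kctd16, all higher, and Adcy1, lower. Adcy3, the adenylyl cyclase of neuronal cilia, was at 1.28 (SE 0.64) without the block and had an edgeR adjusted p of 0.103 with it. It had 122, 44, 36 and 49 reads in control and 358, 40, 145 and 84 in obesity, with library 1 the highest in both groups. Gnas, which encodes the stimulatory alpha subunit and was no member, stood at 3868 ± 280 and 4136 ± 530 CPM, above every member. Without the block, all 7 measured receptor kinases and arrestins and all 4 potassium channel genes had values above 0, as did 50.1% of all genes. Their medians were 0.12 and 0.25, and none of these genes had an unadjusted p under 0.05 in either edgeR fit. With the block, Grk3 and Grk6 lay below 0, at -0.06 and -0.03, and the others stayed above 0.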

How the data were processed

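The authors deposited raw read counts per polyadenylation site for 8 WTTS-seq libraries of rat hypothalamus, 4 per diet group, without normalization. The submitters' processing notes name Bowtie2 2.2.3 and Rnor_6.0. Filters and the clustering of read ends into sites are not given in the sources used here. No molecular identifiers are mentioned, so reads are not independent molecules. A line without a site held the total of control library 1 (1710888 reads) and was left out. The lowest site total was 30 reads, and a minimum of 16 reads removed 0 sites. The paper linked to these libraries describes another exposure than the labels, and the labels were followed.

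Site counts, and their sums per gene over the dominant strand, entered edgeR's quasi-likelihood F test (edgeR 4.0.16, R 4.3.3, TMM scaling, robust fit). The p-values were adjusted by Benjamini-Hochberg over the whole table, at a threshold of 0.1. Site use within genes was tested with diffSpliceDGE and the Simes p. The tests were checked on simulated counts. CPM is relative to the TMM-scaled library total. Depth was 1417531 to 1957726 reads per library. Alternatives were DESeq2 1.42.0 (Wald test, size factors), filterByExpr, both strands summed, the most used site alone, libraries left out and the library number as a block.

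Deviations of log2 CPM from the group means correlated at 0.254 to 0.372 between same-numbered libraries and at -0.206 to 0.0756 between other numbers, over 9318 genes. All 4 pairs exceeded 0.1, so libraries were treated as paired by number, for which the labels give no reason. Each library is taken to be from a separate rat, and p-values measure the spread between these libraries.

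The text names the 12 members with the smallest unadjusted p, the 3 most abundant of each class, the 8 sites with the smallest unadjusted p among those with a mean of at least 10 scaled reads, and the 5 genes with the smallest Simes p. Other items named were chosen after their values were seen. Members and lists were chosen with earlier results of these data known.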

Additional observations from a re-analysis of the deposited data

Results flagged for a closer look

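Single libraries were compared with the other 3 of their group for the named genes, the named sites and the 4 class sums, and 7 of 66 comparisons exceeded the 95% critical value of Dixon's ratio, where chance gives about 1 in 20. Rgs10 stood at 38.2 CPM in control library 1, against 8.03 to 9.12 CPM in the other control libraries. Gnb1l stood at 4.06 CPM in control library 3 and at 9.74 CPM in obesity library 2, both from few reads. Rgs12 had its only control read, 0.669 CPM, in control library 2, where 1 read beside 3 libraries at 0 exceeds the critical value by construction and is no sign of a deviating library. At the named Gnao1 site obesity library 2 stood at 11.8 CPM, and at the named Gna12 site control library 3 stood at 49.9 CPM. Summed G gamma abundance was 698.9 CPM in obesity library 4, below the 902 to 931 CPM of the other obesity libraries.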

How the results depend on the processing

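No member gene passed an adjusted p of 0.1 in 18 of 19 alternative fits. The exception was the replicate block without both libraries numbered 2, with 1 gene, Gng2. At an unadjusted p under 0.05 the 3 genes became 6 with the replicate block, 7 with the block and both strands summed, and 4, 7, 7 and 1 with the block and without the libraries numbered 1, 2, 3 or 4. Leaving out single libraries gave 2 to 6 genes, 6 without obesity library 2. For sites, the count at an adjusted p of 0.1 was 1 by the DESeq2 Wald test and 2 with the block without the libraries numbered 2. The 11 sites at an unadjusted p under 0.05 became 4 with filterByExpr, 21 with the block, and 17, 26, 19 and 10 with the block and without the libraries numbered 1 to 4. Leaving out single libraries gave 8 to 20 sites, 20 without obesity library 2. For site use, 0 genes became 1 with the block, and 0 or 1 when single libraries were left out. The block with both strands summed, and at sites the block without a number, were chosen after seeing the data.

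Of 29 named genes and sites 23 kept their direction in every setting, and leaving out 1 library moved the value of 16 by over 1.5 times. With single libraries left out, Gnai2 ranged from -0.055 (without obesity library 3) to 0.23, also reaching -0.041 without control library 1 and -0.018 without obesity library 4, Gng3 from -0.34 to 0.091 (without obesity library 4), also reaching 0.036 without control library 3, Gng7 from -0.069 (without obesity library 3) to 0.28, Gnb2 from -0.93 to 0.031 (without obesity library 3), and Rgs10 from -1.07 to 0.034 (without control library 1). With the block and without number 4, Gnai2 was at -0.054, Gnb1 at 0.027, Gng3 at 0.050 and Gng7 at -0.078, and without number 3 Gng7 was at -0.031. Rgs10 was at 0.67 with both strands summed and at 0.84 when the block was added to that. Summing both strands adds the 134 reads of the opposite-strand site, whose gene is uncertain, to the 141 Rgs10 reads of its own strand. The cause of these turns was not tested beyond what each setting leaves out or adds. Depth limits the low genes, where 12 members held under 20 CPM.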
